A study of Homo sapiens with 6 samples.

Results

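The genes described here are 10 regulators and markers of the epithelial and mesenchymal cell states: ESRP1, ESRP2, GRHL1, GRHL2, OVOL2, EHF, ZEB1, ZEB2, SNAI2 and VIM. They were taken by gene symbol, each read from the probe set that was brightest on average across the 6 arrays, and all 10 were found among the 14884 genes of the table. They were measured in SKOV3, an established human ovarian cancer cell line. In the 3D group (n = 3), cells were kept for 11 days in low-attachment plates and received FP001, a medium additive given only by this code, at 0.015% (w/v). In the 2D group (n = 3), cells were kept for 11 days in attachment plates without FP001, and both groups had McCoy's 5A medium with 15% serum. Plate and additive differed together, so their effects cannot be told apart. All arrays came from 1 cell line, and nothing in the labels says that the samples of a group were separate cultures, so p-values reflect the spread among the arrays of a group, and this spread may be technical.

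In epithelial cells, the splicing factors ESRP1 and ESRP2 select the epithelial exons of many transcripts, and the transcription factors GRHL1, GRHL2, OVOL2 and EHF maintain junction and differentiation genes. ZEB1, ZEB2 and SNAI2 (Slug) are zinc finger repressors that silence such genes during the epithelial to mesenchymal transition (EMT), and vimentin (VIM) is the intermediate filament protein of mesenchymal cells. ZEB factors and the epithelial regulators repress each other: OVOL2 and GRHL2 hold down ZEB1, ZEB1 holds down ESRP1, and microRNAs of the miR-200 family bind ZEB1 and ZEB2 transcripts. The set therefore holds genes of both sides, and not EMT repressors alone.

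Values are log2 RMA values, in which 1 unit is a doubling, and every change is 3D minus 2D. RMA compresses the changes of dim probe sets. A reading called low or high is so only beside all values of the arrays, and is not an amount of transcript. Levels of single genes are not ranked against each other. Across genes, arrays correlated at 0.988 to 0.995 within 3D, at 0.991 to 0.993 within 2D and at 0.975 to 0.982 between the groups. 3D replicate 1 stood apart from the other 3D arrays (0.988 with each, against 0.995 between those). Of 14884 genes, 10.0% passed a Benjamini-Hochberg adjusted p of 0.05 (limma), 5.23% higher and 4.77% lower in 3D. At an unadjusted limma p under 0.05, 1716 of them were higher and 1777 lower.

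Of the 10 genes, 3 rose in 3D (EHF, ESRP1 and ESRP2), 1 fell (ZEB2) and 6 did not pass. The rises were larger than the fall: at least 2.23-fold for the 3 genes that rose and 1.44-fold for ZEB2. Groups did not overlap for 7 of the 10, with all 3D arrays above all 2D arrays for 4 and below them for 3. Over all genes that share was 29.2% (13.8% above and 15.3% below). Each array averages many cells, so fewer cells with a transcript and less of it per cell cannot be told apart.

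**Figure D1:**
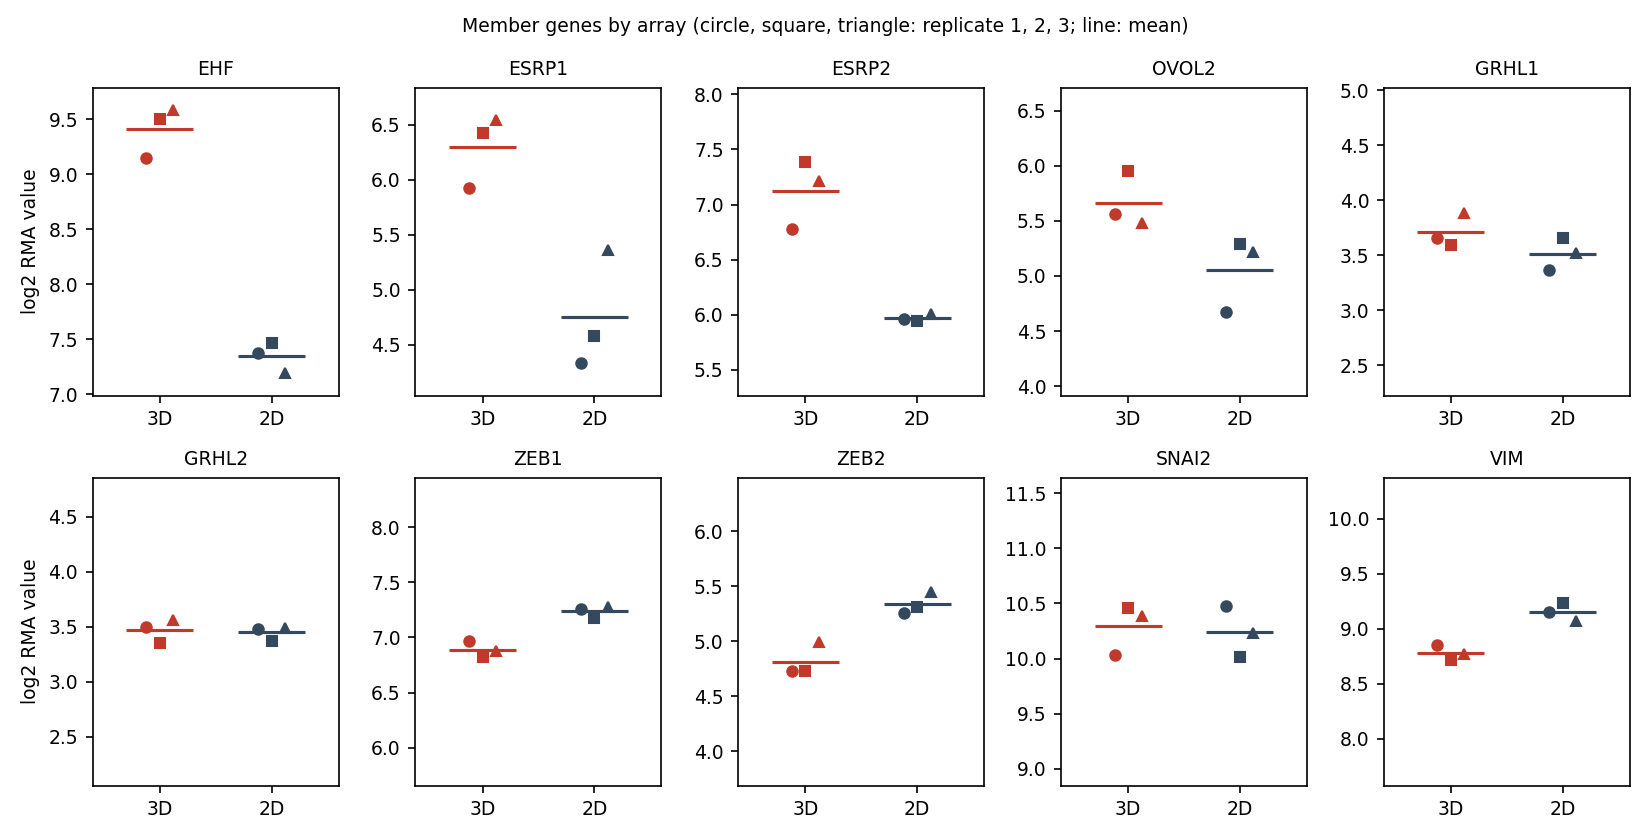
Log2 RMA value of each of the 10 genes on each array, with 3D on the left and 2D on the right of every panel; points are arrays, lines are group means, and every vertical axis spans the same number of log2 units. EHF, ESRP1, ESRP2 and OVOL2 lie higher on all 3D arrays, ZEB1, ZEB2 and VIM lie lower on all 3D arrays, and GRHL1, GRHL2 and SNAI2 overlap.

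EHF, an ETS family transcription factor of epithelial tissues, changed the most. It read 9.14, 9.50 and 9.58 on the 3D arrays, against 7.37, 7.47 and 7.19 on the 2D arrays. All 3D values lay well above all 2D values, with 3D replicate 1 the lowest of its group. The means were 9.41 ± 0.23 in 3D and 7.34 ± 0.14 in 2D (SD, n = 3 each). The log2 fold change of 2.06 ± 0.14 (SE, 95% confidence interval 1.74 to 2.39, adjusted p = 0.000221) is a 4.18-fold rise and ranked 36 of 14884 genes. The call held without each single array (adjusted p up to 0.00272).

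The genes next to EHF on chromosome 11 include another factor of its subfamily. Among measured protein-coding genes in RefSeq order (GRCh38.p14), ELF5, the ETS factor of glandular epithelium, precedes EHF, with CAT (catalase) before it, and APIP and the hyaluronan receptor gene CD44 follow. ELF5 averaged 5.52 ± 0.36 in 3D and 4.08 ± 0.22 in 2D (SD, n = 3 each), a rise of 1.44 ± 0.20 (SE, adjusted p = 0.00396). CAT rose by 0.67 ± 0.097 (adjusted p = 0.00496) and CD44 by 0.58 ± 0.14 (adjusted p = 0.0373). APIP gave 0.23 ± 0.12 (adjusted p = 0.304). The call of CD44 held only without 3D replicate 1, and leaving out each other array gave adjusted p values up to 0.121. CAT and APIP are named for their place, after their values were seen.

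Both ESRP genes rose. ESRP1 read 5.92, 6.43 and 6.54 on the 3D arrays, against 4.33, 4.58 and 5.36 on the 2D arrays. The groups did not overlap, but 2D replicate 3 read higher than the other 2D arrays. The means were 6.30 ± 0.33 in 3D and 4.76 ± 0.54 in 2D (SD, n = 3 each). The change of 1.54 ± 0.28 (SE, 95% confidence interval 0.90 to 2.19, adjusted p = 0.0127) is 2.91-fold. ESRP1 did not pass when 3D replicate 3 was left out (change 1.42, adjusted p = 0.0526) and did not pass when 2D replicate 2 was left out (change 1.45, adjusted p = 0.0539). Without 2D replicate 3 the ESRP1 change was 1.84.

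ESRP2 read 6.77, 7.39 and 7.21 on the 3D arrays, against 5.96, 5.94 and 6.01 on the 2D arrays. The 2D arrays were close together, and the 3D arrays lay above them and apart from each other. The means were 7.12 ± 0.32 in 3D and 5.97 ± 0.035 in 2D (SD, n = 3 each). The change of 1.16 ± 0.16 (SE, 95% confidence interval 0.79 to 1.52, adjusted p = 0.00378) is 2.23-fold, and it passed without each single array (adjusted p up to 0.0222). In EHF, ESRP1 and ESRP2 alike, 3D replicate 1 was the 3D array nearest to 2D. Without it the changes were 2.20, 1.73 and 1.33. The probe sets read whole genes, so exon choice by ESRP proteins was not measured.

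The other epithelial transcription factors of the set did not pass. OVOL2, a zinc finger repressor of ZEB1, read 5.56, 5.95 and 5.48 on the 3D arrays, against 4.67, 5.29 and 5.22 on the 2D arrays. Its groups did not overlap, and 2D replicate 1 was the lowest of the 6 arrays. The change of 0.61 ± 0.19 (SE, n = 3 each, 95% confidence interval 0.16 to 1.06) had an adjusted p of 0.101, and it ranged from 0.41 to 0.72 with single arrays left out.

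The Grainyhead-like genes GRHL1 and GRHL2 read low in both groups, under the mean array median of 4.33. GRHL1 read 3.65, 3.59 and 3.89 on the 3D arrays, against 3.36, 3.66 and 3.52 on the 2D arrays, a change of 0.20 ± 0.12 (SE, adjusted p = 0.4). GRHL2 read 3.50, 3.35 and 3.56 on the 3D arrays, against 3.48, 3.37 and 3.49 on the 2D arrays. Its groups overlapped almost fully, and the change of 0.02 ± 0.098 (SE, adjusted p = 0.934) had a 95% confidence interval of -0.21 to 0.25. The table holds no detection calls, so neither gene is called absent. GRHL2 activates junction genes, and GRHL3 of the same family, named after its values were seen, gave 0.31 ± 0.26 (SE, adjusted p = 0.55). GRHL3 read 4.41, 3.49 and 4.53 on the 3D arrays, against 3.77, 3.75 and 3.97 on the 2D arrays. Its lowest reading was that of 3D replicate 2, and the other 3D readings lay above every 2D reading.

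**Figure D2:**
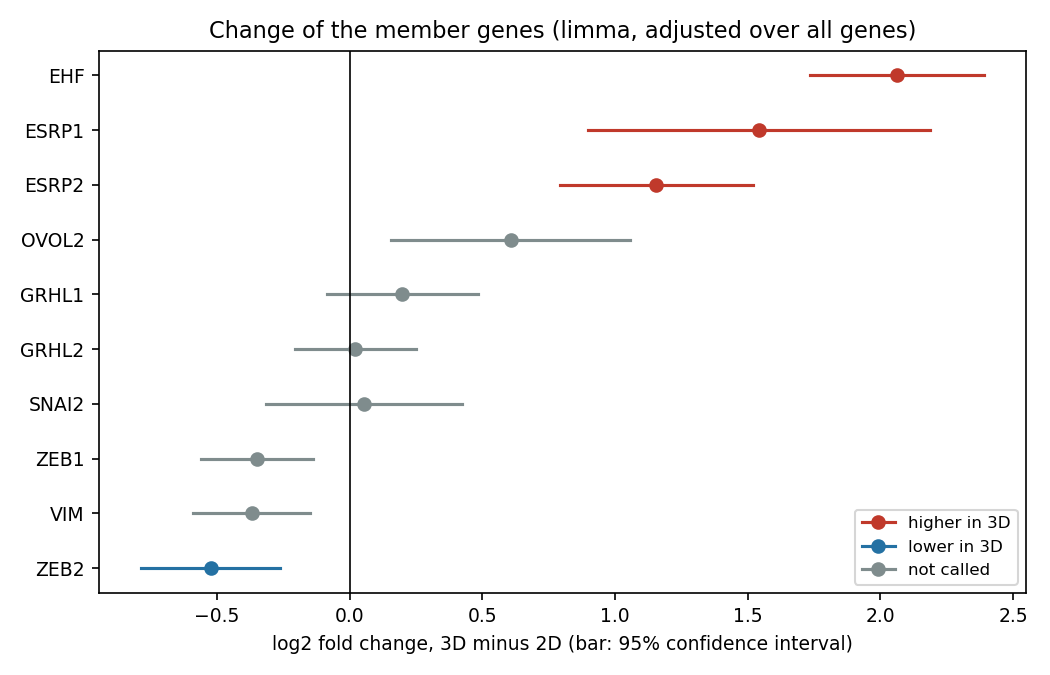
Log2 fold change (3D minus 2D) of each gene with its 95% confidence interval from the limma fit over 14884 genes; red marks genes higher and blue genes lower in 3D at an adjusted p of 0.05, and grey marks genes that did not pass. EHF, ESRP1 and ESRP2 lie between 1.16 and 2.06, and ZEB2 lies at -0.52 beside VIM and ZEB1, which did not pass.

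The ZEB pair lay lower in 3D by a small amount. ZEB2 read 4.73, 4.73 and 4.99 on the 3D arrays, against 5.26, 5.31 and 5.45 on the 2D arrays. No 3D array reached the lowest 2D array. The means were 4.81 ± 0.15 in 3D and 5.34 ± 0.098 in 2D (SD, n = 3 each), and the gene fell by 0.52 ± 0.11 (SE, 95% confidence interval -0.79 to -0.26, adjusted p = 0.0263). ZEB2 did not pass when 3D replicate 2 was left out (adjusted p = 0.106), nor when any 2D array was (0.0603, 0.0774 and 0.0961 without replicates 1, 2 and 3).

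ZEB1 read 6.97, 6.83 and 6.87 on the 3D arrays, against 7.26, 7.18 and 7.28 on the 2D arrays. These groups did not overlap either, and both were narrow, with means of 6.89 ± 0.070 in 3D and 7.24 ± 0.054 in 2D (SD, n = 3 each). The difference of -0.35 ± 0.091 (SE, 95% confidence interval -0.56 to -0.14) had an adjusted p of 0.0527. It passed without 3D replicate 1 (-0.39, adjusted p = 0.0403). The antisense transcripts beside these genes did not pass: ZEB1-AS1 gave -0.19 ± 0.086 (adjusted p = 0.233) and ZEB2-AS1 gave 0.21 ± 0.15 (adjusted p = 0.472). Both were named for their place, after their values were seen.

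ZEB and SNAI proteins bind the E-box CACCTG, and 20.6% of 35116 RefSeq promoter windows (250 bases before to 50 after a gene start) hold it on either strand. Promoter windows of 5 of the 10 genes matched in that table. The 12 windows of these 5 genes held it at 2 of the 7 ZEB1 starts. None of the starts of EHF (2 starts), GRHL1, ZEB2 or VIM (1 start each) held it. The Grainyhead-like motif AACCNGTT, found in 1.73% of windows on either strand, was in none of the 12. The ZEB1 window with 3 E-boxes is shown with that of ZEB2, since the pair lay lower in 3D together. Both are 5′ to 3′ on the gene's strand (GRCh38.p14), and capitals mark the E-box on either strand. The ZEB1 window lies at chr10:31318966-31319265 (plus strand) and that of ZEB2 at chr2:144520070-144520369 (minus strand).
ZEB1: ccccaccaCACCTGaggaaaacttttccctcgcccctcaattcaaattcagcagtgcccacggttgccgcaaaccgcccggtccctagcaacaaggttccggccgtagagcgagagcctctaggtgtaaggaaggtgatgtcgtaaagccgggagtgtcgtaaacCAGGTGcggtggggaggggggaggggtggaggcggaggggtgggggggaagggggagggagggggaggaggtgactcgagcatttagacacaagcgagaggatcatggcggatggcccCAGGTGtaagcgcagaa
ZEB2: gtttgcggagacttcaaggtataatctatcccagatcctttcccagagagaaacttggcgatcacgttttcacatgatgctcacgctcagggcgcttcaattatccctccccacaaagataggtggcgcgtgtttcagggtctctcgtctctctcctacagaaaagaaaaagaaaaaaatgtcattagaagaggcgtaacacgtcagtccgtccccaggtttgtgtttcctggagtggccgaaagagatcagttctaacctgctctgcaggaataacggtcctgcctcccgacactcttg
The E-boxes of the ZEB1 window begin 242 and 85 bases before the start and 33 bases after it. A match is only a run of letters, and binding was not measured.

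The microRNAs that bind ZEB transcripts were read through probe sets at their loci, which measure precursor or primary transcript and not the mature form. Their mature sequences from RefSeq (GRCh38.p14) are given with the seed, bases 2 to 8, in capitals, because the seed sorts them into groups.
miR-200b-3p: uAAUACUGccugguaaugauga
miR-200c-3p: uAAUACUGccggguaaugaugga
miR-429: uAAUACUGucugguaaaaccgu
miR-200a-3p: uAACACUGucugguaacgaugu
miR-141-3p: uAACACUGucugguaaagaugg
miR-205-5p: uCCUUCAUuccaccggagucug
The 3 microRNAs named first share a seed, and miR-200a-3p and miR-141-3p share another. Of these 6 loci, 0 rose, 1 fell and 5 did not pass (limma, with the same counts at an unadjusted p under 0.05). Over all genes 5.23% rose and 4.77% fell. MIR200A, MIR429, MIR200C and MIR141 read under the mean lower quartile of the arrays (2.93) in both groups. MIR200B averaged 4.65 ± 0.061 in 3D and 4.61 ± 0.11 in 2D (SD, n = 3 each). MIR205 averaged 3.78 ± 0.097 in 3D and 4.20 ± 0.092 in 2D, and fell by 0.42 ± 0.10 (SE, adjusted p = 0.0382). MIR205 still passed without 3D replicate 1, but leaving out each other array gave adjusted p values up to 0.149 and no call.

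SNAI2 gave high readings in both groups that did not separate. It read 10.03, 10.46 and 10.39 on the 3D arrays, against 10.47, 10.02 and 10.23 on the 2D arrays. The highest and the lowest of the 6 readings both came from 2D. The means were 10.30 ± 0.23 in 3D and 10.24 ± 0.23 in 2D (SD, n = 3 each), and the difference of 0.05 ± 0.16 (SE, adjusted p = 0.891) had a 95% confidence interval of -0.32 to 0.42.

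VIM read 8.86, 8.72 and 8.77 on the 3D arrays, against 9.15, 9.23 and 9.07 on the 2D arrays. Every 3D reading was below every 2D reading. The means were 8.78 ± 0.070 in 3D and 9.15 ± 0.083 in 2D (SD, n = 3 each), a difference of -0.37 ± 0.095 (SE, 95% confidence interval -0.59 to -0.15) at an adjusted p of 0.0501. It passed without 3D replicate 1 (-0.41, adjusted p = 0.0416), as the mean of the gene's probe sets (-0.37, adjusted p = 0.0344) and with its most variable probe set (-0.49, adjusted p = 0.0189).

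VIM was the only one of the 10 genes with more than 1 probe set, and its 3 probe sets may not read the same strand. The genes whose probe sets neighbour each VIM set in ID order were looked up. Of the genes with a strand in the RefSeq promoter table among the 20 named probe sets on each side, 29 around the set used here (16712274) and around 16712272 lie on the minus strand and 2 on the plus strand. Around 16702767, 28 lie on the plus strand, as VIM itself does, and 1 on the minus strand. The annotation gives no strand, so whether 16712274 and 16712272 read VIM or an antisense transcript was not settled. The VIM passes given above rest on these sets: the most variable set is 16712272, and the mean includes both. Probe set 16702767 read 8.32, 8.44 and 8.37 on the 3D arrays, against 8.67, 8.60 and 8.62 on the 2D arrays. Its difference was -0.25 ± 0.098 (SE), with an adjusted p of 0.329 over all 53617 probe sets. Probe set 16712272 gave -0.49 ± 0.11 (adjusted p = 0.0801 over all probe sets). The groups did not overlap in any of the 3, and all 3 were lower in 3D.

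**Figure D3:**
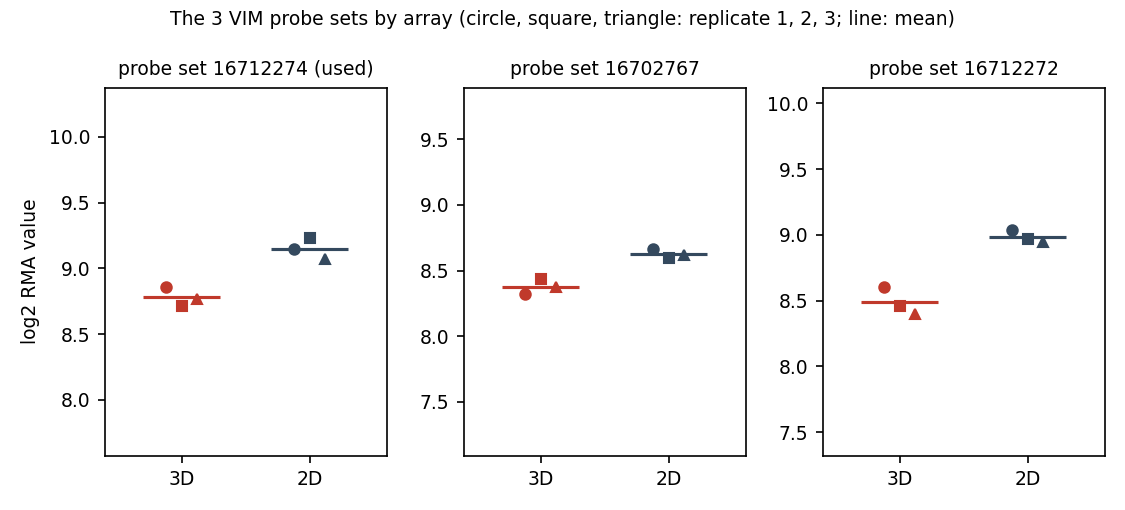
Log2 RMA values of the 3 VIM probe sets, with 3D on the left and 2D on the right; circles, squares and triangles are replicates 1, 2 and 3, and lines are group means. In each probe set all 3D arrays lie below all 2D arrays, with differences of -0.37, -0.25 and -0.49.

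The plot of left-out arrays shows which calls depend on 1 array. EHF and ESRP2 passed in all 6 reduced comparisons, ESRP1 in 4 and ZEB2 in 2. ZEB1 and VIM each passed in 1, without 3D replicate 1, and OVOL2 in 0 (limma, with unadjusted p = 0.0149 over all arrays).

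**Figure D4:**
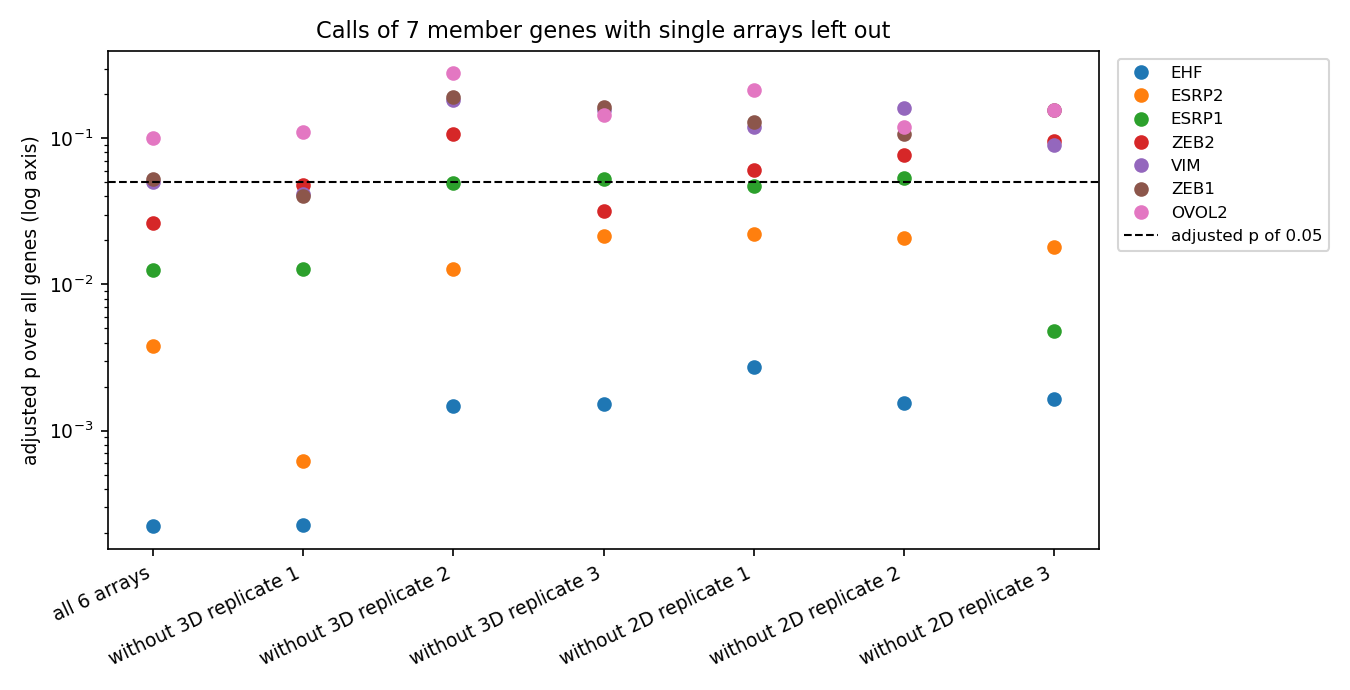
Adjusted p (log axis) of 7 of the genes with all 6 arrays and without each array in turn; each colour is a gene and the dashed line is 0.05. EHF stays at or below 0.00272 and ESRP2 at or below 0.0222, whereas ESRP1, ZEB2, ZEB1 and VIM lie on both sides of the line.

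Of 25 listed epithelial genes known to be repressed by ZEB factors or activated by GRHL factors, not all of them genes of junctions, 18 were measured. Of these, 9 rose (ESRP1 is on this list too), 0 fell (limma, 1 lower at an unadjusted p under 0.05) and 9 did not pass. The share to set beside this and every other list count is 5.23% higher and 4.77% lower over all genes. By the per-gene test, which allows unequal variances, 1 rose and 0 fell, against 82 of all 14884 genes called. The median change was 0.47, beside -0.01 over all genes. The adhesion molecule gene EPCAM rose by 1.76 ± 0.11 (SE), the vesicle motor gene MYO5B by 1.28 ± 0.12 and the tight junction gene CLDN3 by 1.12 ± 0.13. Their 2D means were 8.20, 5.96 and 8.78, and each passed without any single array. With each gene centred on its own mean, the list averaged 0.16, 0.36 and 0.34 on the 3D arrays, against -0.31, -0.28 and -0.27 on the 2D arrays. Without 3D replicate 3, 5 members rose.

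Of 11 measured of 17 other epithelial transcription factors, 4 rose, 0 fell (limma, 1 lower at an unadjusted p under 0.05) and 7 did not pass, with a median change of 0.17. By the per-gene test 0 passed in either direction. SPDEF, the ETS factor of secretory epithelium, averaged 7.84 ± 0.35 in 3D and 5.61 ± 0.030 in 2D (SD, n = 3 each), a rise of 2.24 ± 0.17 (SE, adjusted p = 0.000299). FOXA1, a pioneer factor of glandular epithelium, rose by 0.71 ± 0.17 and KLF5 by 0.59 ± 0.14. FOXA1 and KLF5 still passed without 3D replicate 1 but not without any other array (adjusted p values up to 0.138 and 0.14), and 2 members rose without 3D replicate 3 or any 2D array.

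Other EMT transcription factors went both ways. Of 13 measured of 17, 3 rose, 1 fell and 9 did not pass, with a median of 0.18. Over all genes 5.23% rose and 4.77% fell. TCF4 (E2-2), a basic helix-loop-helix EMT inducer, fell by 0.85 ± 0.16 (SE, adjusted p = 0.0176). The homeobox gene PRRX2 rose by 1.03 ± 0.15 (adjusted p = 0.00451), KLF8 by 0.46 ± 0.12 and HMGA2 by 0.45 ± 0.11. SNAI1 (Snail) gave 0.57 ± 0.24 (adjusted p = 0.207) and TWIST1 gave -0.18 ± 0.11 (adjusted p = 0.388), both named after their values were seen. TCF4 still passed only without 3D replicate 1 or 2D replicate 2 (otherwise adjusted p values up to 0.0697). KLF8 still passed only without 2D replicate 3 (otherwise up to 0.15) and HMGA2 only without 3D replicate 1 (otherwise up to 0.164). Without single arrays other than 3D replicate 1, 1 to 2 members of this list passed. Under a trended robust variance, 2 rose and 3 fell, so the balance of directions turned.

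Of 9 measured of 14 other splicing regulators of EMT, 2 rose, 1 fell and 6 did not pass, with a median of 0.08. RBM47, an RNA-binding protein of epithelial cells, averaged 6.38 ± 0.039 in 3D and 4.93 ± 0.19 in 2D (SD, n = 3 each), a rise of 1.44 ± 0.12 (SE, adjusted p = 0.000372). The muscleblind genes moved apart, MBNL3 rising by 1.11 ± 0.14 (adjusted p = 0.00324) and MBNL2 falling by 0.90 ± 0.13 (adjusted p = 0.00431). These 3 calls held without each single array.

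Transcripts that ESRP proteins splice were measured for 13 of 16 list members, at the whole-gene level. Of these, 3 rose, 2 fell and 8 did not pass (GRHL1, on this list too, is among the last), with a median of 0.08. The tricellular junction gene LSR rose by 1.19 ± 0.13 (SE, adjusted p = 0.00114) and CD44 by 0.58 ± 0.14. The polarity gene PARD3 fell by 0.92 ± 0.083 (adjusted p = 0.000606) and the growth factor receptor gene FGFR2 fell by 0.70 ± 0.10 (adjusted p = 0.00569). Without any array except 3D replicate 1, 1 member rose and 2 fell.

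Of 20 other mesenchymal markers 7 were measured, and 0 rose (limma, 1 higher at an unadjusted p under 0.05), 3 fell and 4 did not pass. By the per-gene test 0 passed in either direction. Their median was -0.01. The 3 that fell were the matrix genes TNC (-1.71 ± 0.32 SE) and FN1 (-1.38 ± 0.24) and the actin-binding gene TAGLN (-1.62 ± 0.14). All 3D arrays lay below all 2D arrays for 3 of the 7 and above them for 3, against 15.3% and 13.8% of all genes. Those above were LOX (0.41 ± 0.13 SE, adjusted p = 0.101), S100A4 (0.48 ± 0.21, adjusted p = 0.22) and DCN (0.12 ± 0.091, adjusted p = 0.515). These genes were named after their values were seen. Without 2D replicate 1 only TAGLN passed, with FN1 at an adjusted p of 0.0512, and TNC also missed the threshold without 3D replicate 3 or 2D replicate 3 (values up to 0.0606).

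Beside VIM, 15 of 20 other intermediate filament genes were measured, and 2 rose, 2 fell and 11 did not pass, with a median of 0.14. The keratin genes KRT5 (3.22 ± 0.62 SE) and KRT19 (2.70 ± 0.24) rose, whereas KRT80 fell by 1.77 ± 0.16 and KRT7 by 0.93 ± 0.14. KRT5 still passed only without 3D replicate 1 (otherwise adjusted p values up to 0.0708).

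Of 10 measured ZEB corepressor genes, 0 passed (limma, 1 higher and 2 lower at an unadjusted p under 0.05, 0 by the per-gene test), with changes from -0.39 to 0.39. Of all 14884 genes, 1716 were higher and 1777 lower at an unadjusted limma p under 0.05, and 82 passed the per-gene test. The nearest were SIRT1 (-0.39, adjusted p = 0.0504) and RCOR1 (0.39, adjusted p = 0.056), named after their values were seen. Without 3D replicate 1, after removal of dim probe sets and under a trended robust variance, 1 rose and 1 fell. With repeated quantile normalization 1 rose, and with the mean of a gene's probe sets 1 fell. Of 9 measured genes of the TGF-beta pathway, which induces ZEB and SNAI factors, 2 rose, 2 fell and 5 did not pass, with a median of -0.13. The inhibitory SMAD gene SMAD6 rose by 0.95 ± 0.14 (SE) and the latent TGF-beta binding protein gene LTBP1 by 0.86 ± 0.099. The SMAD corepressor genes SKIL and TGIF1 fell by 0.62 ± 0.11 and 0.59 ± 0.11, and TGIF1 missed the threshold when 3D replicate 3 or either of 2D replicates 1 and 3 was left out (adjusted p values up to 0.0648). The TGF-beta ligand and receptor genes on the list were not analysed here.

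**Figure D5:**
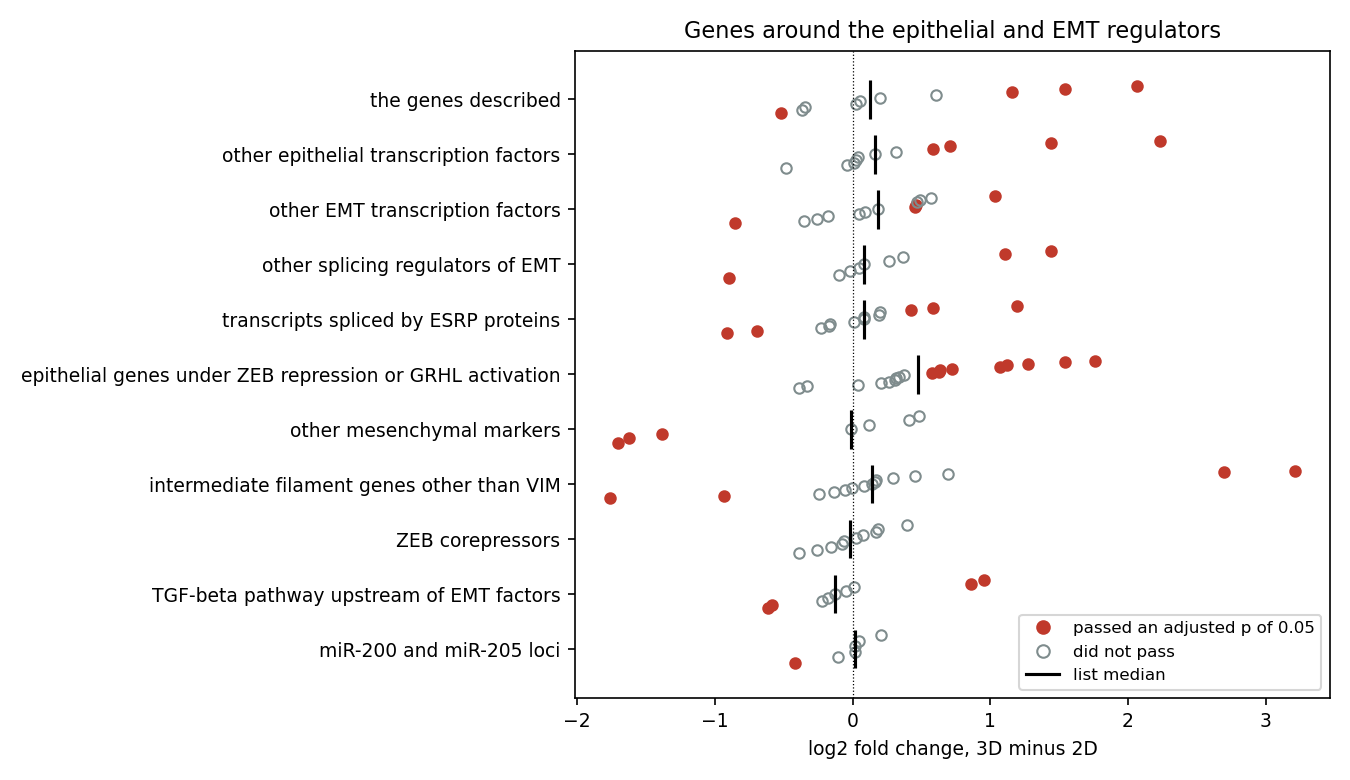
Log2 fold change (3D minus 2D) of every measured gene in each list; filled points passed an adjusted p of 0.05, open points did not, and black bars are list medians. The epithelial genes under ZEB repression or GRHL activation have the highest median, at 0.47, and the other medians lie between -0.13 and 0.18.

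Genes whose profile over the 6 arrays lay nearest to that of ESRP1 (root mean square distance of centred log2 values, protein-coding genes) were TMC4, ERICH3, UNC5B, FXYD3 and RHOU, at distances of 0.20 to 0.23 and Pearson correlations of 0.966 to 0.985. Nearest to ZEB2 were PTPDC1, TRIP6, PPIL6, SNX33 and GLIS3, at distances of 0.031 to 0.064 and correlations of 0.983 to 0.998. The 6 points share the 2 groups, so the group difference is part of each correlation, which is given as a description.

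Markers of other cells were read on the same arrays. Of 10 leukocyte markers 4 were measured, and 2 rose: the lysosomal gene CD68 (0.68 ± 0.11 SE) and the lysozyme gene LYZ (1.83 ± 0.29, and 1.06 as the mean of its probe sets). The other 2 lay lower in 3D and did not pass: CD14 gave -0.41 ± 0.16 (adjusted p = 0.168) and CSF1R gave -0.38 ± 0.15 (adjusted p = 0.167), both under 0.05 unadjusted. Without 3D replicate 1, 1 leukocyte marker fell. CD14 and CSF1R were named after their values were seen. The mean level of the 4 was 5.66 to 5.92 on the 3D arrays, against 5.29 to 5.37 on the 2D arrays. Of 10 fibroblast and endothelial markers 4 were measured, and the endothelial adhesion gene PECAM1 rose by 1.27 ± 0.14. The endothelial genes VWF (-0.04 ± 0.15 SE, adjusted p = 0.908) and KDR (-0.11 ± 0.17, adjusted p = 0.762) did not pass, and their groups overlapped. Both were named after their values were seen. The mean level of those 4 was 3.99 to 4.22 in 3D and 3.74 to 3.80 in 2D, and DCN read under the lower quartile in both groups. RMA gives no value of 0, and the part of these markers in the results was not tested. Of 10 measured ovarian carcinoma markers, PAX8, the lineage factor of this tumour type, averaged 10.34 ± 0.17 in 3D and 10.18 ± 0.064 in 2D (SD, n = 3 each). SOX17 rose by 1.63 ± 0.15 and WFDC2 by 0.76 ± 0.18, KRT7 fell as given above and FOLR1 fell by 0.79 ± 0.18, and 6 did not pass. WFDC2 still passed only without 3D replicate 1 or 2D replicate 1 (otherwise adjusted p values up to 0.126), and FOLR1 only without 2D replicate 3 (otherwise up to 0.114).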

How the data were processed

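Total RNA of SKOV3 cells was hybridised to 1 array per sample, 3 per group. The deposited values are log2 RMA values per probe set, made with RMA per the submitters' processing notes. RMA corrects background, equalises array distributions and summarises probes. For the version, the probe grouping and any filter, nothing is stated in the labels. That the scale is log2 was read from the range of 0.30 to 13.87. The labels' protocols name a 3′ IVT kit, whereas the probe annotation is of a Gene ST array; this was not settled.

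Of 53617 probe sets, 16098 had 1 gene symbol, 0 several and 37519 none. All 16098 matched a RefSeq gene table (GRCh38.p14), which gave current symbols. Keeping the probe set with the highest mean left 14884 genes.

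Group alone was fitted with limma 3.58.1 in R 4.3.3 to all genes (lmFit, eBayes, two-sided), with Benjamini-Hochberg adjustment over 14884 genes and a threshold of 0.05. An exact permutation test of 3 against 3 cannot go below 0.1 and was not used. The number of arrays limits the precision. Named were all 10 genes, the largest changes past the threshold in each list (at most 4), and the 5 genes most like ESRP1 and the 5 most like ZEB2. PAX8, DCN and the miR-200 loci fall outside that rule and were named after their values were seen. The genes and lists were chosen with earlier results of these data known. Alternatives were another normalization, a filter on dim probe sets, other probe set choices, left-out arrays, a block for the replicate number, a variance prior that was trended and robust, and a test gene by gene that allowed unequal variances.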

Additional observations from a re-analysis of the deposited data

How the results depend on the processing

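The number of genes called was 1488, with 760 under the replicate block, 82 by the test of single genes that allowed unequal variances (the per-gene test), and 775 to 1899 with single arrays left out (lowest without 3D replicate 3, highest without 3D replicate 1). Of the 10 genes 4 were called, against 2 (EHF and ESRP2) with all probe sets tested singly, 0 by the per-gene test, 3 (EHF, ESRP1 and ESRP2) under the replicate block, and 2 to 6 with single arrays left out. Of the genes on the other lists, leaving out the 10, 42 were called, against 25 with all probe sets tested singly, 2 by the per-gene test, 30 under the replicate block, and 26 to 49 with single arrays left out. The numbers measured are given list by list above. The share to set beside these counts is 10.0% of all 14884 genes in the main fit. With all probe sets tested singly, 1284 of 53617 probe sets were called. The per-gene test shares no variance between genes. Testing all probe sets adjusts over more tests and also shares variance over all probe sets, so that the SE of ESRP1 went from 0.276 to 0.295.

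ZEB1 and VIM passed after dim probe sets were removed (adjusted p = 0.0433 and 0.0414) and under the trended robust variance (0.0295 and 0.0121). For VIM these values are of probe set 16712274, whose strand was not settled. ESRP1 and ZEB2 missed the threshold with all probe sets tested singly (0.0533 and 0.103), and ZEB2 under the replicate block (0.0588). Leaving out single arrays turned the sign of 2 genes that were not called: GRHL2 ranged from -0.024 to 0.080 and SNAI2 from -0.059 to 0.19. The other 8 genes kept their direction in all alternatives run. Same-numbered arrays did not deviate together (correlations of -0.28, -0.057 and -0.18 over genes), and differently numbered ones gave -0.14 to 0.23. Deviations from a mean of 3 arrays cannot settle whether the numbers pair the samples. Among the microRNA loci, MIR205 lost its call with all probe sets tested singly and under the replicate block. It also lost it under the trended robust variance and by the per-gene test.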

Other observations

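Genes beside the other members that passed gave these values. Next to ESRP1, VIRMA gave -0.12 and DPY19L4 gave -0.23, and neither passed. Next to ESRP2, DDX28 gave -0.04 and PRMT7 gave 0.17, and neither passed. ZFP90, which follows PRMT7, fell by 0.51 ± 0.12 (SE, n = 3 each, limma adjusted p = 0.0378). The other genes in second place did not pass. They were RAD54B (0.27) and INTS8 (0.21) around ESRP1, DPEP2 (-0.05) near ESRP2, and ARHGAP15 (0.16) and EPC2 (-0.31) around ZEB2. Over all genes 10.0% passed, 4.77% of them lower in 3D. Next to ZEB2, QTMAN gave -0.08 and MBD5 gave -0.04, and neither passed. These genes were named for their place on the chromosome, after their values were seen.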
